A study of Mus musculus with 4 samples.

Results

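The T-cell receptor (TCR) loci carry the variable (V), diversity (D), joining (J) and constant (C) gene segments from which a thymocyte assembles its antigen receptor by cutting and rejoining DNA. The beta, gamma and delta loci are rearranged first, at the double-negative stage before CD4 and CD8 appear. The alpha locus follows at the CD4+CD8+ double-positive (DP) stage, once a beta chain has paired with the pre-TCR alpha chain. In cells that go on to carry an alpha-beta receptor, transcripts of the gamma locus are usually kept low. Of 45101 probe sets on the array, 18 belonged to these loci. They were chosen by the platform's gene symbols, taking each probe set whose symbol field names a TCR locus or segment of the alpha, beta, gamma or delta chain. By locus, 10 lay in alpha, 3 in beta, 5 in gamma and 0 in delta. A single probe set, for Trgv4 and Trgv2, named more than 1 segment.

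RNA of DP cells from mice of C57BL/6 background was hybridized to 4 Affymetrix Mouse 430 2.0 arrays. Of these, 2 arrays held DP cells of normal thymus with wild-type genotype. The other 2 held DP cells of a peripheral tumour (thymoma) that over-expresses Notch1-IC, the active intracellular part of the Notch1 receptor, with the genotype given as T-ALL (T-cell acute lymphoblastic leukaemia). The sample type label calls all 4 samples tumour cells, although titles, sources and genotypes set the normal ones apart, and these were followed here. Age, sex, the promoter that drives Notch1-IC, any pooling of animals and the number of tumours behind the arrays are not stated here. The labels do not say whether replicate arrays stem from different animals, so p-values reflect only the scatter of these samples, part or all of which may be technical. Normal cells came from thymus and tumour cells from a peripheral site, so site and transformation cannot be told apart.

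The platform annotation names V segments for 17 of the 18 probe sets and the whole alpha locus (Tcra) for the other. C, D and J segments are not named for any of them. Probes of this array type usually lie near the 3' end of a transcript, where a rearranged receptor mRNA holds its constant region. Whether a given probe set reads the named V segment, related segments or the constant region was not tested, and the segment names below are those of the annotation. The 11 distinct names were all found in the RefSeq table of the GRCm38.p6 assembly, on chromosome 14 (alpha), chromosome 6 (beta) and chromosome 13 (gamma). That table holds 191 alpha, 53 beta and 15 gamma segments, so the array names a small part of each locus.

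A few facts of the whole series bear on what follows. The background level of an array was set by the brightest of 27 control probe sets for bacterial transcripts, and it ranged from 12.3 to 17.8 intensity units. Those transcripts were taken to carry no spike, which was not tested. Notch1 itself read 1104 and 1098 on the normal arrays and 7155 and 6417 on the tumour arrays. The defining markers of DP cells were present in both groups but lower in the tumour arrays. Cd8a, which encodes a CD8 chain, read 9074 and 8383 in normal cells and 1287 and 1310 in tumour cells, and Cd4 read 799 and 778 against 183 and 188. The 3'/5' ratio of housekeeping probe sets, a sign of RNA or label length, was 1.20 to 1.28 for beta-actin on the normal arrays and 2.46 to 2.53 on the tumour arrays. Its part in the results was not tested. In bulk samples, fewer cells of a type and less RNA per cell cannot be told apart.

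The comparison addressed which receptor transcripts differ between the DP cells on the Notch1-IC tumour arrays and those on the normal thymus arrays. All 5 gamma probe sets rose in the tumour arrays, by 3.12 to 5.63 on the log2 scale. All 3 beta probe sets fell, with log2 differences of -2.39 to -1.13. Of the 10 alpha probe sets, 8 fell and the other 2, both near background, did not pass the test. The median log2 difference was 3.74 over the gamma, -1.22 over the beta and -2.24 over the alpha probe sets, against -0.02 over all 45037 probe sets tested.

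Differences were tested with limma, whose variance prior followed the level of expression, with Benjamini-Hochberg adjustment over all 45037 probe sets and a threshold of 0.05. With this test 11.3% of all probe sets were called higher and 11.5% lower, 22.8% in all, against 16 of the 18 TCR probe sets. The arrays of the groups did not overlap for any of the 18, 5 with the tumour higher and 13 with the tumour lower. Over all probe sets, groups that did not overlap made up 56.7%, with 27.6% higher and 29.1% lower. With limma's constant prior, which ignores the level, no probe set of the array passed (0 of 45037, smallest adjusted p = 0.0684), though its unadjusted p was below 0.05 for 5 TCR probe sets with the tumour higher and 10 with it lower. Over all probe sets those shares were 12.2% and 13%. The bacterial hybridization spikes read 0.60 higher (log2) on tumour arrays. Scaled to them, the same numbers of TCR probe sets were called, 5 higher and 11 lower, while the median over all probe sets moved to -0.63.

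**Figure D1:**
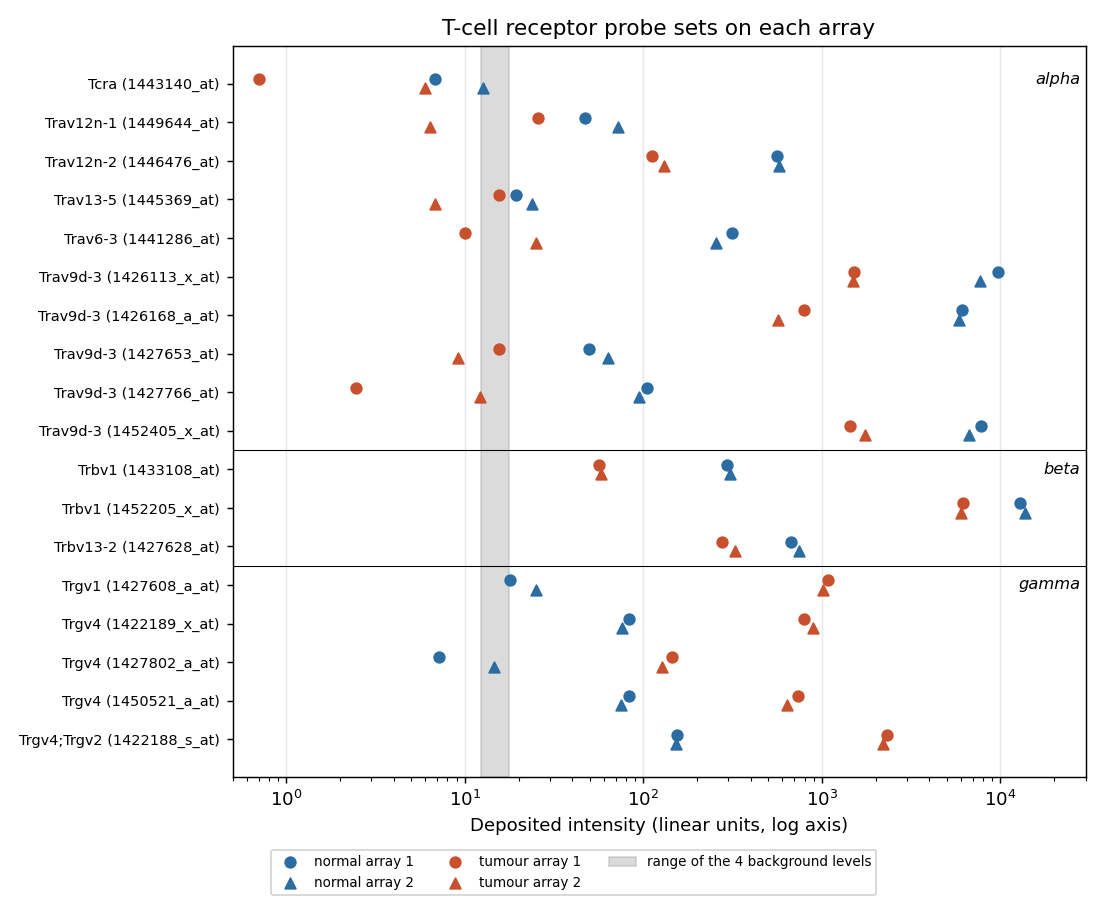
Deposited intensity of each of the 18 TCR probe sets on each array (log axis), with normal arrays in blue, tumour arrays in orange, circles for array 1 and triangles for array 2 of a group, and the range of the 4 background levels in grey (12.3 to 17.8). In the gamma block both tumour points lie to the right of both normal points for all 5 probe sets, and in the alpha and beta blocks they lie to the left for all 13.

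The gamma locus encodes the gamma chain, which pairs with a delta chain in gamma-delta T cells. Trgv1, a V segment at the end of the locus, read 17.95 and 24.95 intensity units on the normal arrays and 1081 and 1017 on the tumour arrays (probe set 1427608_a_at). The normal values lay just above their arrays' background levels of 15.95 and 12.3, and the tumour values lay far above. The log2 difference was 5.63 ± 0.19 (SE, n = 2 arrays per group, limma adjusted p = 1.5e-07), a 49.6-fold difference and the largest of the 18 under the main setting. With normal values this near background the fold depends on how low values are treated. It was 4.84 (log2) after adding 16 units to every value.

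The other gamma probe sets, 4 in number, carried Trgv4, 1 of them together with Trgv2. The shared probe set of Trgv4 and Trgv2 (1422188_s_at) read 155 and 153 on the normal arrays and 2327 and 2202 on the tumour arrays. Its replicates lay close together in both groups, and its log2 difference of 3.88 ± 0.10 (limma adjusted p = 2.54e-08) equals a 14.7-fold rise. Its class may bind transcripts of several genes, so Trgv4 and Trgv2 cannot be told apart on it.

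Of the probe sets named for Trgv4 only, 1422189_x_at read 83.0 and 75.6 in normal cells and 794 and 890 in tumour cells. It rose by 3.41 ± 0.14 (limma adjusted p = 3.22e-07), and its class may bind related transcripts. Probe set 1450521_a_at read 83.4 and 74.8 against 737 and 637, a rise of 3.12 ± 0.14 (adjusted p = 6.61e-07). These 2 probe sets, above background on all 4 arrays, differed between groups by 10.6-fold and 8.67-fold. The remaining Trgv4 probe set, 1427802_a_at, read 7.15 and 14.6 on the normal arrays and 145 and 128 on the tumour arrays. Only 1 of its normal values was above background, and its rise of 3.74 ± 0.40 (adjusted p = 0.000112), a 13.3-fold difference, became 8.92-fold with values raised to background.

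In the order of the RefSeq table, Trgv4 is V segment number 2 of 7 along the gamma locus, and Trgv2 and Trgv1 are numbers 6 and 7, at the other end. The probe sets that rose carry annotated names from both ends, and which segments they read was not tested. Each gamma call was kept when any single array was left out, a fit in which the lone array of a group is assumed to vary like the 2 arrays of the other.

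The alpha locus encodes the chain that completes the alpha-beta receptor of DP cells. Its probe sets furthest above background all carried Trav9d-3. Probe set 1426113_x_at read 9662 and 7689 on the normal arrays and 1507 and 1487 on the tumour arrays. Probe set 1452405_x_at read 7832 and 6704 against 1440 and 1735, and 1426168_a_at read 6081 and 5852 against 794 and 565. On each of them the lowest normal value was several times the highest tumour value.

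The log2 differences of these Trav9d-3 probe sets were -2.53 ± 0.10 (limma adjusted p = 2.66e-07), -2.20 ± 0.10 (adjusted p = 6.32e-07) and -3.15 ± 0.13 (adjusted p = 4.39e-07). They correspond to 5.76-fold, 4.58-fold and 8.91-fold lower levels in tumour cells. The first and the second are of a class that may bind related transcripts.

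Another pair of Trav9d-3 probe sets was above background in normal cells only. Probe set 1427766_at read 105 and 94.7 on the normal arrays and 2.47 and 12.2 on the tumour arrays, both tumour values being below background, so it was at least 6.47-fold lower (limma adjusted p = 0.00159). Probe set 1427653_at read 49.5 and 63.45 against 15.5 and 9.12, and was at least 3.64-fold lower (adjusted p = 0.00507). Both calls ended without normal replicate 1 (adjusted p = 0.0582 and 0.0588), and that of 1427653_at also without normal replicate 2 (adjusted p = 0.105). The log2 difference of 1427766_at was -3.03 without tumour replicate 1 and -5.33 without tumour replicate 2.

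Trav6-3 had the widest gap of the named alpha segments with a value above background in tumour cells. It read 315 and 256 on the normal arrays and 10.0 and 25.2 on the tumour arrays, where only the second value was above background. It fell by 4.16 ± 0.39 (limma adjusted p = 4.69e-05), and the 17.9-fold difference became 13.4-fold with values raised to background. Its log2 difference was -3.50 without tumour replicate 1 and -4.83 without tumour replicate 2. Trav12n-2 read 563 and 578 against 112 and 131, with all 4 values above background. It fell by 2.24 ± 0.14 (adjusted p = 3.37e-06), or 4.72-fold.

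The remaining alpha probe sets were dim. Trav12n-1 read 47.1 and 72.0 on the normal arrays and 25.65 and 6.42 on the tumour arrays. It fell by 2.18 ± 0.62 (limma adjusted p = 0.0312), but the adjusted p was 0.140 without normal replicate 1, 0.269 without normal replicate 2 and 0.0913 without tumour replicate 2, where the log2 difference was -1.18. Without tumour replicate 1 it was -3.18. Trav13-5 read 19.4 and 23.9 against 15.65 and 6.82, with both tumour values below background, and its difference of -1.06 ± 0.66 did not pass (adjusted p = 0.327). The probe set of the whole alpha locus, Tcra (1443140_at), was above background on 1 normal array only and did not pass (adjusted p = 0.368).

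The alpha V segments named by the annotation lie far apart in the locus. In the RefSeq order of 136 V segments on chromosome 14, Trav9d-3 is number 31, Trav12n-1 number 56 and Trav12n-2 number 64. Trav6-3 is number 85 and Trav13-5 number 123. Probe sets named Trav9d-3, Trav12n-1, Trav12n-2 and Trav6-3 were called lower, with Trav12n-1 dim. Which segments, or the constant region, they read was not tested, so these calls cannot be placed along the locus.

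The beta locus encodes the chain that is first tested together with the pre-TCR alpha chain. Its 2 probe sets for Trbv1, a V segment at the start of the locus, fell by unequal amounts. Probe set 1452205_x_at, of a class that may bind related transcripts, read 12954 and 13764 on the normal arrays and 6162 and 6036 on the tumour arrays. It fell by 1.13 ± 0.05 (limma adjusted p = 5.9e-07), or 2.19-fold. Probe set 1433108_at read 294 and 305 against 56.7 and 57.95. There the groups lay further apart, at -2.39 ± 0.17 (adjusted p = 7.38e-06), or 5.23-fold lower.

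Trbv13-2, number 15 of 35 beta V segments in the RefSeq order, read 670 and 741 in normal cells and 278 and 327 in tumour cells. The groups were clearly apart, and it fell by 1.22 ± 0.12 (limma adjusted p = 6.73e-05), or 2.34-fold. On the most intense beta probe set the fall was 2.19-fold, and on the 3 intense alpha probe sets it was 4.58-fold to 8.91-fold. The difference between the changes of the loci was not tested. The beta calls were kept when any single array was left out, with the lone array again assumed to vary like the other group.

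**Figure D2:**
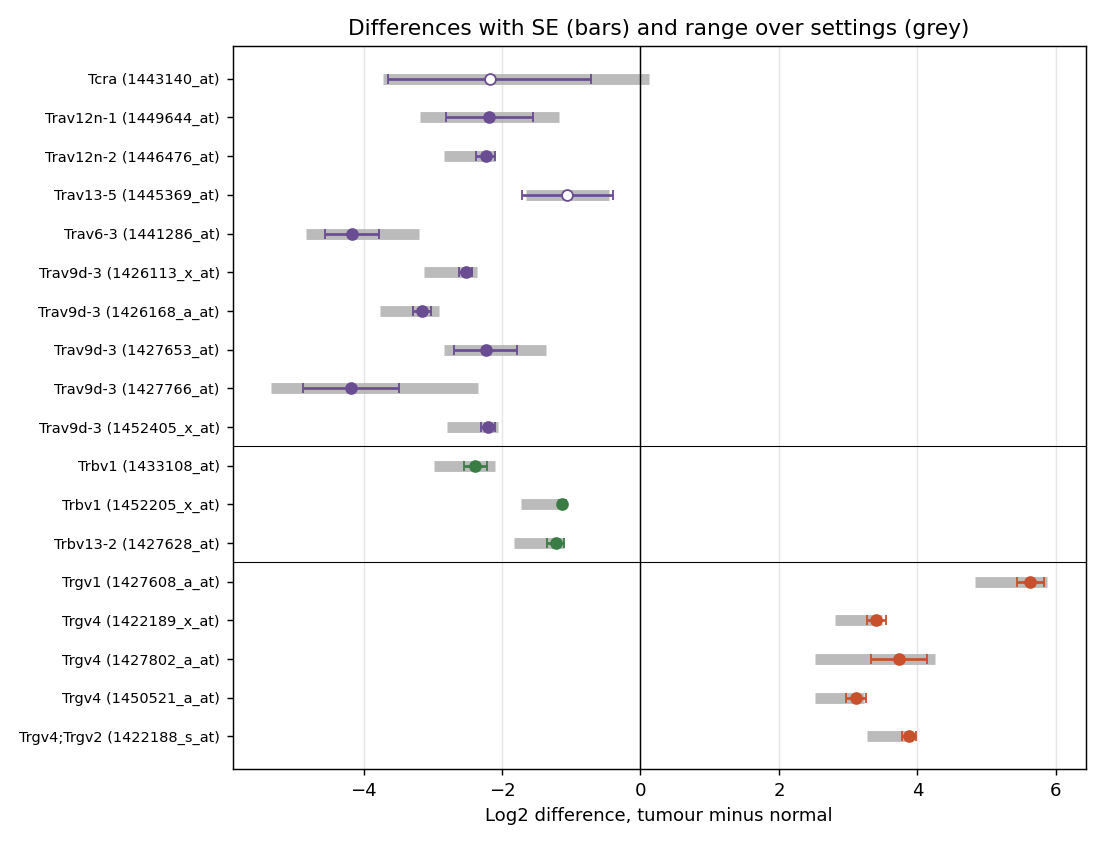
Log2 difference, tumour minus normal, of each TCR probe set with its SE (n = 2 arrays per group), with alpha in violet, beta in green and gamma in orange, filled points for those past the adjusted threshold of 0.05 and grey bars for the range over all settings tried. Only the bar of Tcra crosses 0. The gamma values run from 3.12 to 5.63, and the alpha and beta values from -4.18 to -1.06.

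Replicate spread was smaller for members above background on all 4 arrays than for the others. Over the 11 TCR probe sets above background on all 4 arrays, the absolute log2 difference between the 2 normal arrays had a median of 0.14 and reached 0.48, and that between the 2 tumour arrays had a median of 0.16 and reached 0.49. Over the other 7 it reached 1.03 in normal and 3.09 in tumour cells. The 0.48 was that of Trgv1, whose normal values lay just above background. These 11 probe sets thus differed between groups by more than their replicates did, and the other 7 rest on values of which some are background.

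Partner chains of the receptor were measured on the same arrays, with 1 probe set per gene. For comparison with this list and the later ones, 11.3% of all probe sets were called higher and 11.5% lower. With spike scaling the numbers were 2074 and 11539 of 45037. All probe sets include dim ones, whereas each listed gene took its most intense single-symbol probe set. Of 5 CD3 and pre-TCR chains, 1 rose and 3 fell. Cd247, the zeta chain that carries the signal, read 3166 and 3270 on the normal arrays and 553 and 570 on the tumour arrays, and fell by 2.52 ± 0.08 (limma adjusted p = 9.2e-08). Of its other probe sets, 1452539_a_at gave -2.51, while 1420716_at (-0.15) and 1426079_at (-0.88) did not pass.

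The CD3 chains differed less. Cd3g read 6556 and 6511 against 4259 and 4588 and fell by 0.56 ± 0.06 (limma adjusted p = 8.95e-05). Cd3d read 11626 and 10609 against 9477 and 9619 and fell by 0.22 ± 0.05 (adjusted p = 0.0168). Cd3e differed by -0.22 ± 0.11 and did not pass (adjusted p = 0.187), though it passed with spike scaling, at -0.82.

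Ptcra, the pre-TCR alpha chain that stands in for the alpha chain before its rearrangement, read 607 and 608 in normal cells and 1946 and 2065 in tumour cells. Both tumour values lay well above both normal values, and it rose by 1.72 ± 0.08 (limma adjusted p = 8.07e-07). Ptcra thus went the opposite way to the alpha and beta probe sets in the same arrays.

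Of 11 measured genes of the recombination machinery, 7 fell and 1 rose, with a median log2 difference of -0.29. With spike scaling 9 fell and the median was -0.89. Rag1 and Rag2 together cut DNA at receptor segments. Rag1 read 10284 and 12144 against 5578 and 5806 and fell by 0.97 ± 0.07 (limma adjusted p = 1.28e-05). Rag2 read 2051 and 2309 against 623 and 532 and fell by 1.92 ± 0.10 (adjusted p = 1.58e-06). Dntt, the polymerase TdT that adds bases at the joins, fell by 1.80 ± 0.05 on its most intense probe set and by 1.20 on another, while its dimmest, 1420166_at, gave 0.13 and did not pass.

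Among the end-joining genes, Nhej1 fell by 1.99 ± 0.49, Xrcc4 by 0.80 ± 0.22 and the ligase gene Lig4 by 0.29 ± 0.09, as did the DNA-bending protein gene Hmgb2, by 0.29 ± 0.07. Nhej1 was dim, at 53.7 and 56.5 on the normal arrays and 21.45 and 8.95 on the tumour arrays. Its second tumour value was below background. The 3.97-fold fall of Nhej1 (limma adjusted p = 0.0145) became 3.26-fold with values raised to background. Xrcc5, which encodes the Ku80 subunit, rose by 1.06 ± 0.15 (limma adjusted p = 0.00068), a call that ended with spike scaling (0.46, adjusted p = 0.0547).

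**Figure D3:**
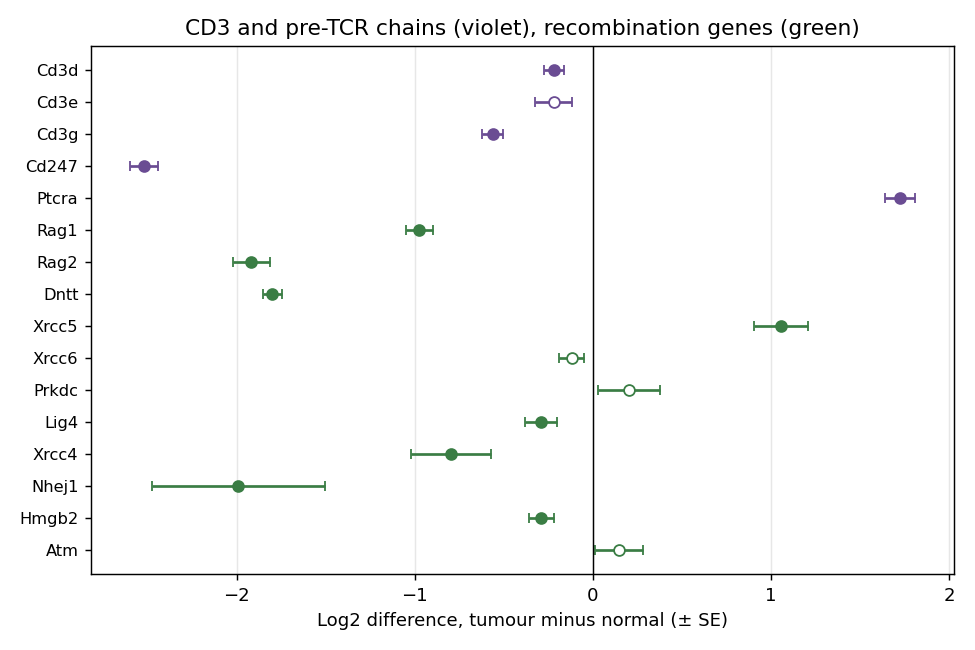
Log2 difference, tumour minus normal, with SE (n = 2 arrays per group), for CD3 and pre-TCR chains (violet) and genes of the recombination machinery (green), filled where the adjusted p was below 0.05. Ptcra (1.72) and Xrcc5 (1.06) stand to the right of 0, and Cd247 (-2.52), Nhej1 (-1.99), Rag2 (-1.92) and Dntt (-1.80) stand furthest to the left.

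Of 18 measured regulators known to act on TCR loci, 5 rose and 7 fell, with a median of -0.07, or 2 and 14 with spike scaling. Il7r, the receptor of interleukin 7, whose signal opens the gamma locus through STAT5, read 108 and 109 on the normal arrays and 679 and 720 on the tumour arrays, a rise of 2.69 ± 0.13 (limma adjusted p = 6.61e-07). Stat5b fell by 0.77 ± 0.09, and Stat5a differed by 0.25 ± 0.11 and did not pass (adjusted p = 0.151). Id2, an inhibitor of E proteins, rose by 2.55 ± 0.23 and its relative Id3 fell by 0.72 ± 0.12. Gata3 (0.57), Tcf12 (0.40) and Lef1 (0.29) also rose, but with spike scaling their differences were -0.04, -0.20 and -0.31. The other regulators called lower were E2f2 (-1.18), Ctcf (-0.57), Cbfb (-0.41), Bcl11b (-0.30) and Ets1 (-0.30).

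Markers of other cells that a tumour sample could hold moved in the same arrays. Of 8 measured markers known from gamma-delta or innate-like T cells, 5 rose and the other 3 did not pass, and their summed intensity was 116 to 157 on the normal and 776 to 870 on the tumour arrays. Cd163l1, a scavenger receptor of gamma-delta T cells, read 11.7 and 14.6 against 245 and 250, and the transcription factor gene Maf read 29.3 and 30.8 against 230 and 298. Sox13, a transcription factor of gamma-delta T cells, read 15.0 and 21.0 against 66.1 and 62.0. Zbtb16 did not exceed background on either tumour array, nor did Il1r1 and Il17a on either normal array. Cd163l1, Sox13, Blk and Zbtb16 each exceeded it on 1 normal array only, so the normal sums hold values at or below background.

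Macrophage markers rose for 6 of 8 genes, or 5 with spike scaling, where Adgre1 did not pass (1.08, adjusted p = 0.149). They had a summed intensity of 89.2 to 128 in normal and 1539 to 1627 in tumour cells. C1qa, Fcgr3 and Cd14 did not exceed background on either normal array, and Adgre1 and Cd68 exceeded it on 1 normal array only. Of 7 NK cell markers, 3 rose and the other 4 did not pass. The NK sum was 1163 to 1195 on the normal and 5422 to 5457 on the tumour arrays, mostly through Gzma, a granzyme, and the NK receptors Ncr1 and Klra8 were at or below background on all 4 arrays. Of 7 B cell markers, Cd22 rose and Cd79b fell, with a list median of 0.13 (log2). The B cell sum was 365 to 398 in normal and 214 in tumour cells, and its fall came through Cd79b. Cd79b read 321 and 294 on the normal arrays and 52.1 and 63.5 on the tumour arrays. Cd22 read 9.77 and 17.5 against 91.5 and 71.1, its first normal value being below background. Pax5 and Cd79a were at or below background on all 4 arrays. The 7 measured DP markers all fell, with a summed intensity of 37171 to 38780 against 11553 to 11722. The part of these cell types in the TCR probe set differences was not tested.

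**Figure D4:**
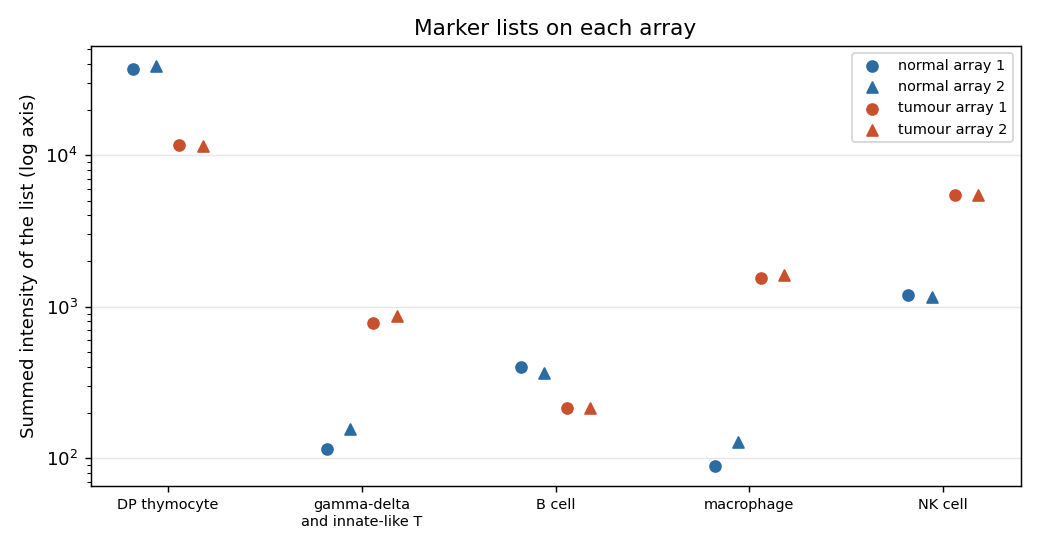
Summed intensity of 5 marker lists on each array (log axis), with normal arrays in blue and tumour arrays in orange, circles for array 1 and triangles for array 2 of a group. The sums of the DP list (37171 to 38780 in normal, 11553 to 11722 in tumour cells) and the B cell list are lower in tumour cells. For the B cell list this came through Cd79b. The sums of the gamma-delta, macrophage and NK lists are higher.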

How the data were processed

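Total RNA of DP cells was turned into biotin-labelled cRNA with a 3' IVT kit for Mouse 430 2.0 arrays, per the labels' protocols. One linear intensity per probe set and array was deposited, from 0.08 to 19270. Per the submitters' processing notes RMA was used, without a version. RMA rarely yields linear values under 1, which leaves the summary method and the meaning of the dimmest intensities uncertain. The deposited arrays share nearly the same distribution, which hides a shift common to all genes.

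Log2 was taken without an offset, dim values were kept, and 64 control probe sets were left out. The unit was the probe set. Limma 3.58.1 in R 4.3.3 (lmFit, eBayes with trend and robust prior) was fitted to all 4 arrays and run on simulated data. The simulated noise was independent and took its level trend from these arrays, so that run could not test the choice of prior. The trend was used because the median SD between replicates was 1.31 (log2) in the dimmest 25% and 0.10 in the brightest 25% of probe sets. The prior added 7.27 (median) to 2 residual degrees of freedom. The members, lists and test were chosen with earlier results of these data known.

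Probe sets were named from GEO's platform annotation. Listed genes took their single-symbol probe set with the highest mean. A probe set dim on both arrays of a group got a bound ("at least"), with each dim array raised to its background level. Every member was to be described on each array if above background on both arrays of a group. Listed receptor complex and recombination genes that passed were named, and for markers counts, medians and up to 2 intense members, with a few others added after their values were seen. Alternatives were other priors, scalings, treatments of dim values, filters, a threshold of 0.01, probe set classes, a replicate block and each array left out. The number of arrays limits the precision.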

Additional observations from a re-analysis of the deposited data

How the results depend on the processing

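Over 16 alternative settings, 256 of 280 values of single TCR probe sets kept their direction and their side of the threshold. The only reversal was Tcra, from -2.18 to 0.12 with values raised to background, where it did not pass in either case. With limma's constant prior, 0 TCR probe sets and 0 probe sets in all were called higher or lower. Adjusted p of the 16 called TCR probe sets was then at least 0.0684. With spike scaling, 2074 probe sets were called higher and 11539 lower (15.2% higher among called), against 5084 and 5189 (49.5%) under the main setting, and the medians were -2.84 (alpha), -1.83 (beta) and 3.13 (gamma). The gamma median was 3.41 with values raised to background and 3.17 with 16 units added. With the _x_at and _s_at classes left out, 3 TCR probe sets were called higher, as fewer were tested, and the beta median was -1.81. Leaving out each array in turn gave 5 to 5 TCR probe sets called higher and 8 to 11 lower, with 8 without normal replicate 1. Medians then ranged from -2.58 to -2.26 (alpha), -1.34 to -1.15 (beta) and 3.47 to 3.87 (gamma). Over all probe sets these fits called 3325 to 3983 higher, with 3336 without tumour replicate 1 and 3325 without tumour replicate 2, and 3184 to 4386 lower, with 3184 without normal replicate 1 and 3309 without normal replicate 2. The numbers 1 and 2 are not said to pair arrays across groups. With the replicate block, 5 TCR probe sets were called higher and 11 lower, and 6125 and 6319 in all, and deviations of same-numbered arrays correlated at r = 0.25 across 10772 probe sets whose mean log2 reached 7. The cause of these shifts was not tested except where fewer probe sets or arrays entered. Signal near background limits the dim alpha probe sets.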

Other observations

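Genes next to the TCR loci were looked at after the TCR values had been seen. Only measured protein-coding genes above background on both arrays of a group were considered. Among these, the nearest 2 on either side of each locus in the RefSeq order, and any inside, were taken. Around the gamma locus, Yae1d1, Vps41, Stard3nl and Epdr1 gave 0 of 4 past limma's adjusted threshold, with 3 at an unadjusted p below 0.05, and 0 and 1 with the constant prior. With spike scaling Yae1d1 was called lower, at -0.72 (limma adjusted p = 0.00488), and the other gamma neighbours did not pass. Under the main setting the counts were 3 and 3 of 4 around the alpha locus and 5 and 6 of 6 around the beta locus. With the constant prior they were 0 and 3 for alpha and 0 and 5 for beta. Over all probe sets 22.8% passed the adjusted threshold and 32.1% lay at an unadjusted p below 0.05. Those shares had no background filter, so they are not a like comparison. Epdr1, 2210010C04Rik, Trpv6 and Prss2 passed the filter only through the group where they read higher, which raises the counts. Vps41, a sorting protein gene, read 369 and 363 on the normal arrays and 446 and 444 on the tumour arrays, and Stard3nl read 149 and 135 against 177 and 189. Epdr1 read 7.87 and 11.9 against 29.5 and 30.7, with both normal values below background.

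Around the beta locus, Ephb6, a receptor of the Eph family, read 442 and 442 against 99.7 and 113 and fell by 2.06 ± 0.14 (SE, n = 2 arrays per group, limma adjusted p = 6.54e-06). Prss2, a trypsin gene that lies inside the beta locus, fell by 1.69 ± 0.36. On the other side of the locus Ssbp1, a mitochondrial DNA-binding protein gene, rose by 0.76 ± 0.09 (0.15 with spike scaling, where it did not pass, adjusted p = 0.296) and Dennd11 fell by 0.55 ± 0.12. Beside the alpha locus, Dad1, a subunit of the oligosaccharyl transferase, fell by 0.61 ± 0.08, while the next gene, Abhd4, a lipase gene, read 90.8 and 112 against 533 and 616, a rise of 2.51 ± 0.15. On the other side of the alpha locus Mettl3 fell by 1.18 ± 0.15, and Sall2 did not pass (limma adjusted p = 0.869). The called neighbours of the alpha locus thus differed in both directions, with Mettl3 and Dad1 lower and Abhd4 higher. Around the beta locus the higher calls, Ssbp1 and Trpv6, both ended with spike scaling (Trpv6 0.86, adjusted p = 0.204).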
